A study of Mus musculus with 8 samples.

Results

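The subject is both mature strands of the mouse mir-21a precursor, miR-21a-5p and miR-21a-3p, in hearts taken 21 days after myocardial infarction (MI) or sham surgery. They are 2 of the 1908 mature miRNA probe sets in a table of 3222 probe sets, chosen by their identifiers (MIMAT0000530_st for the 5p arm and MIMAT0004628_st for the 3p arm). The choice was made from the MI-to-Sham difference in these same hearts, so their values are a description and carry no test. There were 4 MI hearts, from male C57/BL6 mice labelled 8 weeks old whose left anterior descending coronary artery had been tied, and 4 Sham hearts from mice of the same strain, sex and labelled age after the sham operation. The titles of both groups carry the suffix nc, which the labels do not explain, and number the MI hearts 1, 4, 5 and 7 and the Sham hearts 1 to 4. Total RNA of each heart was hybridised to 1 Affymetrix miRNA 4.0 array. Heart RNA comes from many cell types at once, so a higher level per cell and a larger share of the cells that make the miRNA cannot be told apart.

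A miRNA is cut from a hairpin-shaped precursor as a short duplex. One strand, the guide, is usually kept in an Argonaute protein and pairs with messenger RNAs through its seed, near its 5′ end, while the other strand, the passenger, is mostly degraded. For mir-21 the 5p arm is the usual guide. It is abundant in cardiac fibroblasts and macrophages, has been studied widely in cardiac fibrosis, and represses among others Spry1 (an inhibitor of growth factor signalling) and Pdcd4 (a translation inhibitor). The 3p arm has been described in vesicles released by rodent cardiac fibroblasts.

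The sequences are shown because a probe set reads a mature strand by its letters, and because the arms differ in seed and base composition. They are RefSeq's, build GRCm38.p6, written 5′ to 3′, and capitals mark the seed, bases 2 to 8.
miR-21a-5p: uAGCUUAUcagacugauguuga
miR-21a-3p: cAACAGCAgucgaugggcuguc
miR-21b: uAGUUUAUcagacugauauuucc
miR-21c: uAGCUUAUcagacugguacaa
Both miR-21a arms are 22 bases long. G and C make up 8 of the 22 bases of the 5p arm (36.4%) and 13 of the 22 of the 3p arm (59.1%). The arms share no seed. Among 1679 mature mouse miRNA names in the RefSeq table, 1 other, miR-21c, has the seed of the 5p arm, and 0 others have the seed of the 3p arm. Counted from base 1 of the 5p arm and without gaps, miR-21b differs from it by C4U, G18A, G21U and A22C, and matches at 18 of 22 bases. The change C4U lies in the seed. The differences of miR-21c are A16G, G18A, U19C, U20A and G21A, all outside the seed, with 16 of 21 bases matching. Probe sets of miR-21b and miR-21c could not be named here, and any signal that they contribute to the miR-21a-5p reading was not tested.

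Both arms come from 1 hairpin of 92 bases on the minus strand at chr11:86584067-86584158. The hairpin is printed to show where the strands lie in it, with the mature strands in capitals.
Mir21a hairpin: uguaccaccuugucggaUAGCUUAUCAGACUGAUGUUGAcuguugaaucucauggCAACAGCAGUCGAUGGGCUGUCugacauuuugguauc
The 5p arm occupies chr11:86584120-86584141, hairpin bases 18 to 39, and the 3p arm chr11:86584082-86584103, hairpin bases 56 to 77, with 16 bases between them. In the lowest-energy structure that was predicted for the hairpin, 19 bases of the 5p arm pair with the 3p arm. In each arm the first 4 bases are paired, 2 of them in G-C pairs. The hairpin lies within the annotated span of Vmp1 (vacuole membrane protein 1, needed for autophagy) on the same strand, chr11:86583858-86683836, and ends 209 bases before the 3′ end of that span. The table used gives gene spans without exons, so whether the position is exonic is not given here.

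miR-21a-5p was the arm with a clear signal, and it was higher in all MI hearts than in any Sham heart. It read 8.48, 8.74, 7.58 and 8.59 log2 units in MI hearts 1, 4, 5 and 7, against 6.05, 6.26, 5.78 and 5.17 in Sham hearts 1, 2, 3 and 4. The groups did not overlap, MI heart 5 was the lowest of the MI hearts, and Sham heart 4 was the lowest of the Sham hearts. The mean was 8.35 ± 0.53 in MI hearts and 5.82 ± 0.47 in Sham hearts (SD, n = 4 each), so that MI hearts were 2.53 higher (standard error 0.31, limma fit). This is a 5.79-fold higher intensity, or 4.66-fold to 7.18-fold within 1 standard error. The closest hearts of the 2 groups, MI heart 5 and Sham heart 2, were 1.31 log2 units apart (2.49-fold), and the farthest, MI heart 4 and Sham heart 4, were 3.57 apart (11.9-fold). Within a group the brightest and the dimmest heart differed 2.24-fold among MI hearts and 2.13-fold among Sham hearts, so even the smallest gap between the groups was wider than the range within either.

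The passenger arm, miR-21a-3p, read near background in both groups. Its values were 1.52, 2.01, 1.59 and 1.58 log2 units in MI hearts 1, 4, 5 and 7, against 1.20, 1.29, 1.14 and 0.999 in Sham hearts 1, 2, 3 and 4. The MI readings all lay above the Sham readings, and MI heart 4 stood apart from the other MI hearts. The mean was 1.67 ± 0.23 in MI hearts and 1.16 ± 0.12 in Sham hearts (SD, n = 4 each). The array carries 17 dim spike-in control probe sets, which ran from 0.79 to 2.06 over all arrays, and no reading of miR-21a-3p in any of the 8 hearts exceeded 2.06. That highest value was read on the array of Sham heart 2. On the arrays of MI hearts 1, 4, 5 and 7 the highest dim control read 1.55, 1.45, 1.49 and 1.69. No fold is given for this arm, because neither group lay above 2.06.

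**Figure D1:**
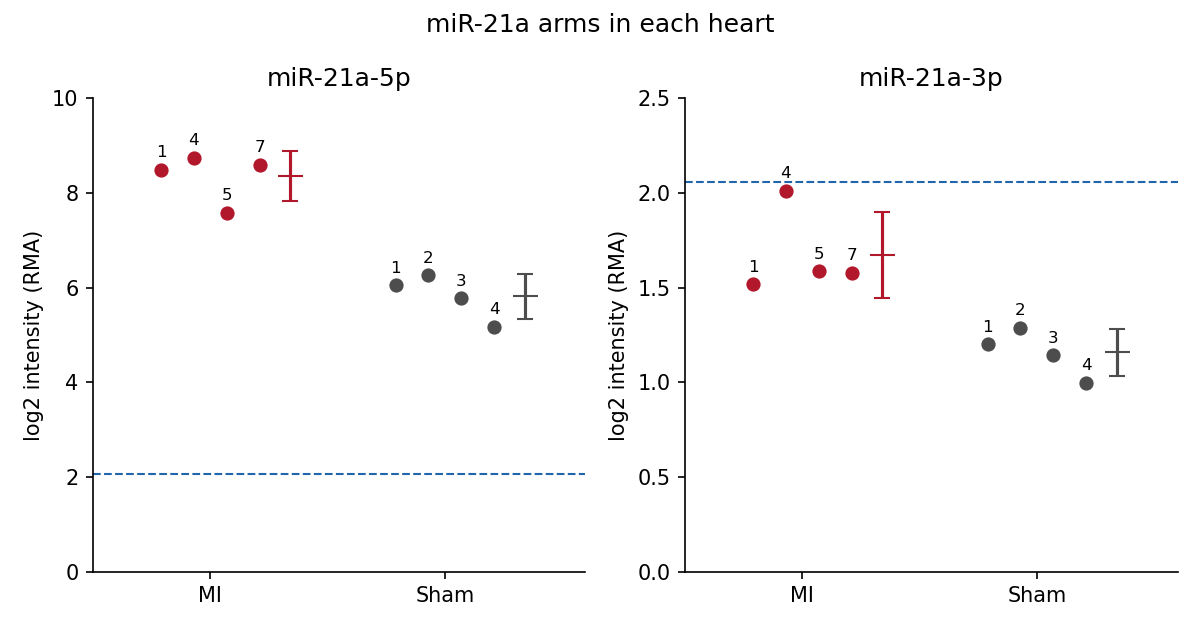
Log2 intensity of miR-21a-5p (left panel) and miR-21a-3p (right panel) in each MI heart and each Sham heart; numbers are the heart numbers of the labels, bars are mean and SD (n = 4), and the dashed line is the highest dim control, 2.06. The panels have different vertical scales: the 5p arm lies far above the line in all hearts, with MI hearts between 7.58 and 8.74 and Sham hearts between 5.17 and 6.26, while the 3p arm lies below it in all hearts.

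Set against the controls of its own array, the 3p reading exceeded 16, 17, 17 and 15 of the 17 dim controls in MI hearts 1, 4, 5 and 7, against 11, 14, 8 and 1 of them in Sham hearts 1, 2, 3 and 4. The controls themselves differed between the groups by -0.25 to 0.13 log2 units, with a median of -0.03, and in 0 of the 17 did every MI array lie above every Sham array. The fitted difference of the 3p arm, from which it was chosen, was 0.52 log2 units with a standard error of 0.13, and nothing is read from setting it beside these controls. Among mature probe sets on the same array, the 3p reading exceeded 61.9%, 73.4%, 64.3% and 62.7% in the MI hearts, against 33.6%, 45.2%, 25.1% and 6.66% in the Sham hearts, in the same heart order. These are places of readings near the floor of the scale and not amounts of the strand.

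Probes differ in how brightly they read, so the gap between the arms within a heart does not measure how much more of 1 strand was present. Only the change of that gap between groups can be read. The 5p reading minus the 3p reading was 6.97, 6.73, 5.99 and 7.01 log2 units in MI hearts 1, 4, 5 and 7, against 4.85, 4.97, 4.63 and 4.17 in Sham hearts 1, 2, 3 and 4. Every MI heart had the wider gap. The mean gap was 6.67 ± 0.47 in MI hearts and 4.66 ± 0.35 in Sham hearts (SD, n = 4 each), so that the gap was 2.02 wider in MI hearts (standard error 0.29). Because the 3p arm read near background, this widening describes 1 measured arm and 1 near the floor. With each 3p reading set to the constant 2.06, the change is by construction that of the 5p arm alone, 2.53. For lack of a 3p signal clearly above background, whether the ratio of the strands changed could not be read from these arrays.

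Heart by heart, the deposited values put the Sham hearts in the same order in both arms and the MI hearts in different orders. Sham heart 2 was highest in both arms, followed in both by hearts 1, 3 and 4. Quantile normalization gave this order too, but after centring on the brightest 25% of mature probe sets the Sham order in the 3p arm was 3, 4, 1 and 2, while that of the 5p arm was as before. Centring shifts these 3p readings at background by the median of bright probe sets. What the shared order rests on was not tested. In the MI group, heart 4 was highest in both arms. MI heart 5 was the lowest in the 5p arm, where it deviated by -0.77 log2 units from the MI mean, but the next after heart 4 in the 3p arm, where it deviated by -0.09. MI hearts 7 and 1 came, in that order, between hearts 4 and 5 in the 5p arm and after both in the 3p arm, where hearts 1, 5 and 7 lay between 1.52 and 1.59. The groups form separate clusters of 4 hearts, so no correlation between the arms is given and the relation cannot be tested.

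**Figure D2:**
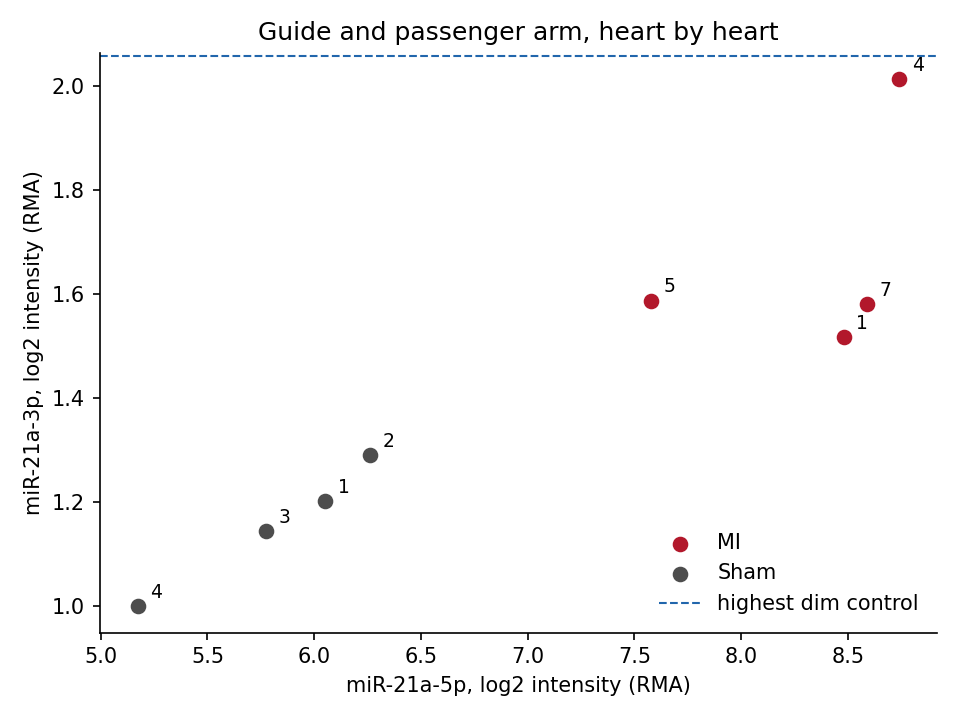
Log2 intensity of miR-21a-3p (vertical axis) against miR-21a-5p (horizontal axis), 1 point per heart with its number, MI in red and Sham in grey; the dashed line is the highest dim control, 2.06. With these deposited values the Sham hearts line up in the same order in both arms, which centring on the brightest 25% of mature probe sets ends, while MI heart 5 is lowest in the 5p arm and second of the MI hearts in the 3p arm.

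The arrays themselves varied. Sham hearts 1 and 3 lay at the ends of the first principal component of the 477 brightest mature probe sets, at -11.7 and 16.5, with the MI hearts between -7.86 and 4.00. Without both of these Sham hearts the 5p difference was 2.63 and the 3p difference 0.53. The mean of 15 bacterial hybridisation controls was 11.4, 11.6, 11.7 and 11.4 log2 units on the arrays of MI hearts 1, 4, 5 and 7, against 11.2, 11.1, 11.9 and 11.6 on those of Sham hearts 1, 2, 3 and 4. MI heart 5, lowest of its group in the 5p arm, had the highest control mean of the MI arrays, and Sham hearts 3 and 4, the lowest of their group in both arms, had the highest control means of the Sham arrays. However, MI heart 4, highest of its group in both arms, had the next highest control mean of the MI arrays. Sham heart 3 exceeded Sham heart 4 in both arms and in the control mean. The part of the hybridisation in this spread within groups was not tested. Between groups the control mean differed by 0.05 with a standard error of 0.20, and the groups overlapped. Cell type markers, heart muscle included, could not be examined, because the files do not pair probe set identifiers with miRNA names.

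With the deposited values, the 5p arm had the widest difference of any mature probe set with a mean of at least 5 log2 units. The next of the 270 others was 1.99 higher in MI hearts, the lowest was -1.14, and their median was -0.11. By brightness, miR-21a-5p ranked 124, 115, 152 and 116 among the 1908 mature probe sets in MI hearts 1, 4, 5 and 7, against 231, 224, 236 and 262 in Sham hearts 1, 2, 3 and 4. A rank depends on the probes as well as on the amount, but the move between groups is within 1 probe set. All MI values lay above all Sham values in 13 of the 271 probe sets with a mean of at least 5 (4.8%), and in 2.88% of all 1908. The limma fit called 0.524% of the 1908 higher in MI hearts (Benjamini-Hochberg adjusted p under 0.05) and 0 lower, with 59 higher and 61 lower at an unadjusted p under 0.05. Quantile normalization also gave 0 lower, and the fit without Sham heart 1 gave 1. Since the arm was chosen from this contrast, these shares are given as background only.

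The 3p arm belongs to the 1359 mature probe sets whose means lay under 2.06 in both groups. In 20 of them (1.47%) all MI values lay above all Sham values. Of the 1358 others, 4 had a larger difference than the 0.52 of the 3p arm, the largest being 0.60, and their median was -0.00029. Of the 1359, 0 passed the threshold in limma, with 20 higher and 17 lower at an unadjusted p under 0.05, and for the same reason this too is background only.

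**Figure D3:**
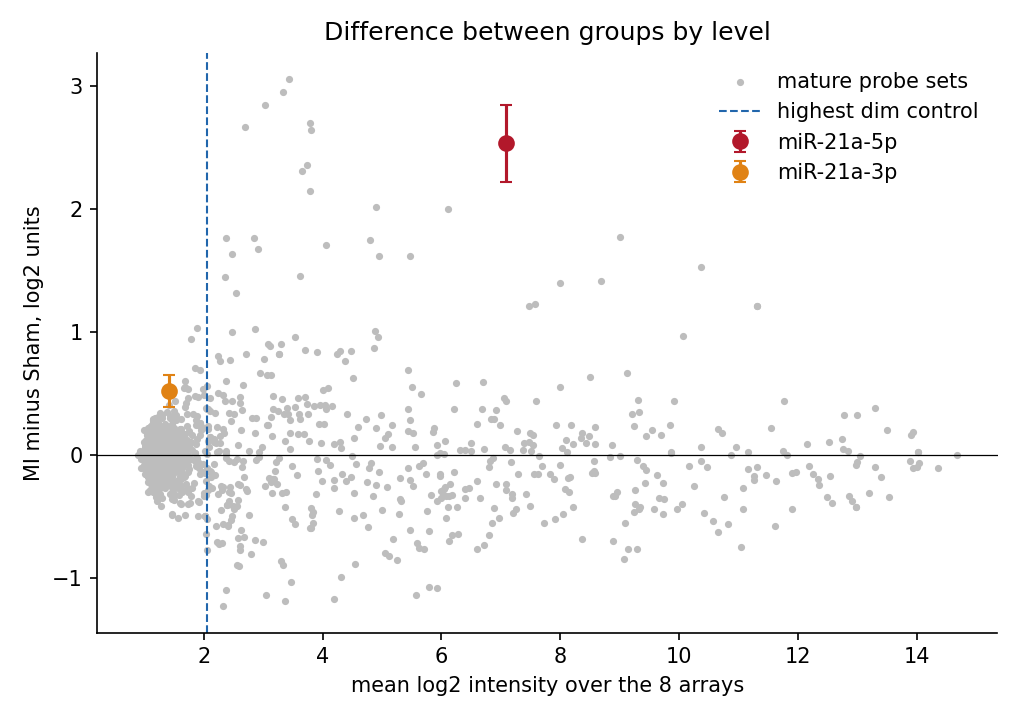
MI minus Sham difference in log2 units (vertical axis) against mean log2 intensity over the 8 arrays (horizontal axis) for 1908 mature probe sets in grey, with miR-21a-5p and miR-21a-3p in colour; bars are 1 standard error of the limma fit, and the dashed line is the highest dim control. At 2.53, miR-21a-5p stands above all other probe sets with a mean of at least 5, while some with a lower mean lie higher. miR-21a-3p, at 0.52, lies at the upper edge of the dim ones.

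Hearts of the same group differed in miR-21a-5p somewhat more than in the middle of the bright probe sets. Its residual SD was 0.50 log2 units, against a median of 0.40 over the 270 others, and 67.0% of them had a smaller one. For the 3p arm the residual SD was 0.18, against a median of 0.16 over the other dim probe sets, and 62.0% had a smaller one.

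The 5 probe sets most like miR-21a-5p over the 8 arrays, among 270 with a mean of at least 5, had Pearson's r of 0.883 to 0.961. These values share the arrays and include the difference between the groups, so they describe likeness in these hearts. The closest was MIMAT0000672_st, with 6.29 ± 0.30 log2 units in MI hearts and 4.67 ± 0.65 in Sham hearts (SD, n = 4 each). The next was MIMAT0000229_st, with 9.89 ± 0.31 in MI hearts and 8.12 ± 0.21 in Sham hearts (SD, n = 4 each). In all 5 the MI and Sham values did not overlap and the MI mean was higher, by 1.21 to 1.77, each smaller than that of miR-21a-5p. All MI values lay above all Sham values in 4.8% of the 271 probe sets with a mean of at least 5. Picking by likeness to an arm chosen from this contrast favours such probe sets, so nothing further is read from the count. When dimmer probe sets were included in the search, 2 of the 5 most like had a larger difference than miR-21a-5p, up to 2.84. In the list with a mean of at least 5, the fourth and the fifth had identical values on all arrays and so count as 1 profile. For the 3p arm the 5 most like probe sets had r of 0.846 to 0.940, again with the distance between the groups included. One of them was miR-21a-5p itself. The lists of the arms had 3 of 5 probe sets in common.

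The difference of miR-21a-5p lay between 2.32 and 2.999 log2 units under every processing that was tried. It was 2.57 after quantile normalization and 2.64 when arrays were centred by the median of the brightest 25% of mature probe sets. After that centring, MI hearts ran from 7.91 to 8.86 and Sham hearts from 5.29 to 6.03, again without overlap, and the ranges within both groups were narrower than with the deposited values. Leaving out each heart in turn gave 2.32 (without Sham heart 4) to 2.79 (without MI heart 5). Over all 13 settings, the deposited values included, the fold lay between 4.99 and 7.99. The upper end came from the fit with the replicate number as a block, in which only MI hearts 1 and 4 and Sham hearts 1 and 4 set the difference. The 3p difference ran from 0.40 without MI heart 4 to 0.66 with the replicate number as a block, and its groups did not overlap under either rescaling.

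**Figure D4:**
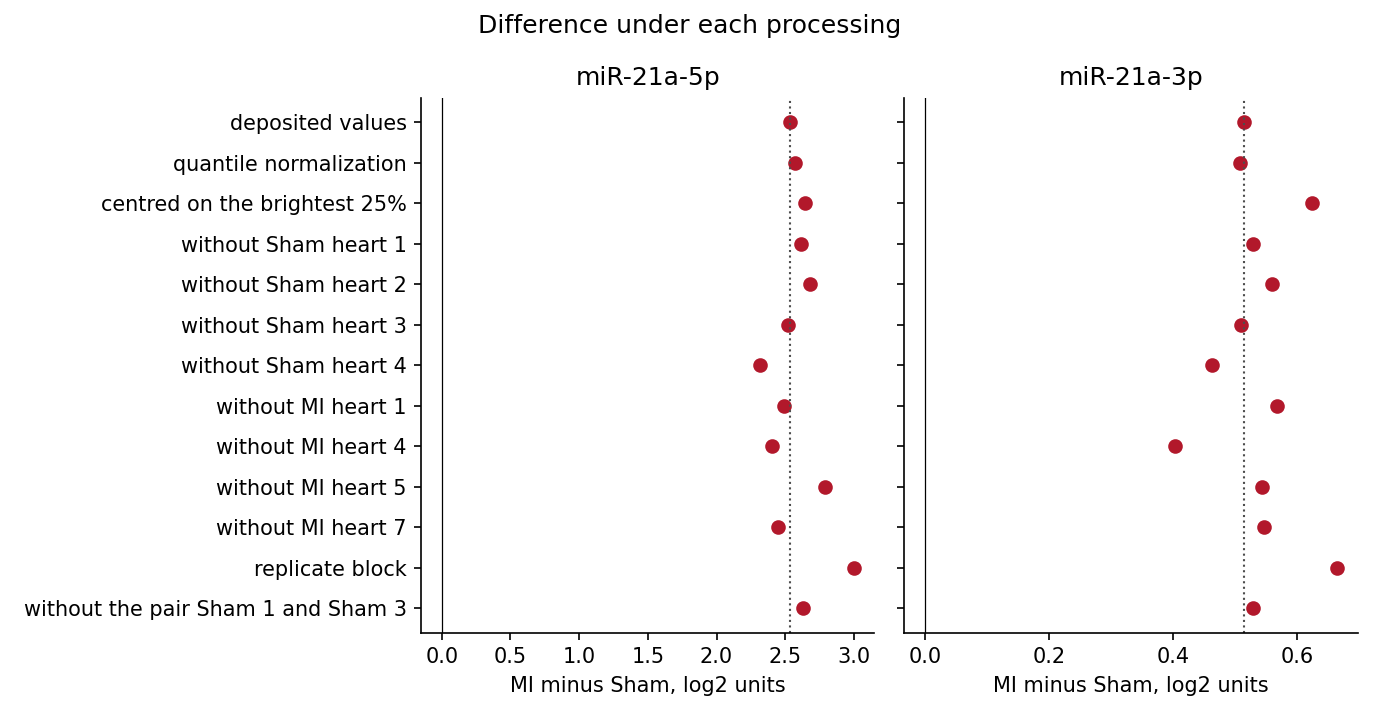
MI minus Sham difference in log2 units (horizontal axis) of miR-21a-5p (left panel) and miR-21a-3p (right panel) under each processing setting (vertical axis); the dotted line is the value with the deposited data, and the panels have different horizontal scales. All points lie to the right of 0, between 2.32 and 2.999 for the 5p arm and between 0.40 and 0.66 for the 3p arm.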

How the data were processed

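The authors deposited 1 table of log2 intensities, made by RMA, per the submitters' processing notes. This method removes background, puts the arrays on 1 scale and reduces each probe set to 1 value. Its version is not given in the sources used here. Per the labels' protocols, total RNA was poly(A)-tailed and biotin-labelled. Scanner files and detection calls were not used here, and the number of arrays limits the precision. Probe sets with miRBase accessions were kept without a filter on level. The group was fitted with limma 3.58.1 in R 4.3.3 to all 1908 mature probe sets (two-sided, Benjamini-Hochberg adjustment, threshold 0.05), a script tested on simulated data. Dim controls are the 17 of 22 spike-in probe sets with a mean under 3. The hairpin was folded with ViennaRNA 2.7.2.

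The members, lists and criteria were chosen with earlier results of these data known. Named items were to be both arms, the hairpin probe set, members of lists of related, fibrosis and leukocyte miRNAs, arm pairs, and for each arm the 5 most correlated probe sets. Neither the files nor the reference tables pair accessions with names, so the lists, the hairpin probe set and the other arm pairs were not analysed here. The labels number hearts, and only 1 and 4 occur in both groups. Rescaling, leaving out hearts and a replicate block were the alternatives.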

Additional observations from a re-analysis of the deposited data

Results flagged for a closer look

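With the deposited values, 1 reading was distant from those of its group. miR-21a-3p read 2.01 log2 units in MI heart 4, while the next MI heart read 1.59, a gap of 0.859 of the range of the group. Chance gives such a value in about 1 of 20 groups, and 6 groups of 4 values were examined (both arms and the gap between them, in MI and Sham hearts). The reading lies under the highest dim control, 2.06, and above all 17 dim controls of its own array. After quantile normalization the gap was 0.893 of the range, but after centring on the brightest 25% of mature probe sets it was 0.277, with 2.13 in MI heart 4 and 1.92 in MI heart 5, so that the reading no longer stood apart. Without that heart the difference between MI and Sham was 0.40 in place of 0.52.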

How the results depend on the processing

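Both arms and the gap between them kept their direction under all 12 alternatives, and none moved by as much as the SD between hearts pooled over both groups (0.50, 0.18 and 0.42 log2 units). Since the groups did not overlap in the deposited values, leaving out hearts or the replicate block could not reverse a direction. Centring shifts both arms of an array alike, so it leaves the gap unchanged by construction. The 3p shift under the replicate block exceeded the SD of the Sham hearts alone, 0.12. After centring on the brightest 25%, the arms no longer shared an order among Sham hearts, and MI heart 4 lay closer to the next heart in the 3p arm. Leaving out each heart in turn gave 2.32 to 2.79 log2 units for miR-21a-5p, 0.40 to 0.57 for miR-21a-3p and 1.86 to 2.24 for the gap. With the deposited values 10 mature probe sets passed the threshold. There were 25 after centring on the brightest 25%, 18 with a robust prior and intensity trend, and 20 when only the brightest 50% were tested. With the replicate block there were 0 (limma, 76 at an unadjusted p under 0.05). In that fit only MI hearts 1 and 4 and Sham hearts 1 and 4 set the difference, and little is left to estimate the spread. The causes of the other changes were not tested. Leaving out each heart gave 7 to 17, the highest without Sham heart 3. Centring moved the median difference of all mature probe sets to 0.11, against -0.0039 with the deposited values. With the replicate number as a block, the differences were 2.999 for miR-21a-5p, 0.66 for miR-21a-3p and 2.33 for the gap. Whether the numbers pair the hearts is not known. Deviations from the group means had correlations of -0.44 (number 1) and -0.15 (number 4) over 271 bright probe sets, but 2 shared numbers cannot decide it. The run without Sham hearts 1 and 3 was added after seeing the data. When the search for like probe sets was widened to all 520 others above 2.06 on average, 1 of the 5 most like miR-21a-5p remained, and 3 of 5 for miR-21a-3p. Alternatives for the lists, the hairpin probe set and the arm pairs were not run. Low signal limits miR-21a-3p, and without detection calls its level cannot be bounded.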
